A study of Mus musculus with 67 samples.

Results

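Tbc1d20, Hprt, Atrnl1, Pnkd and Col6a2 are 5 genes whose probes had higher values at 24 than at 16 months in the cerebral cortex of mice fed ad libitum (AL). The genes were chosen by that AL difference in these same arrays, so it is described below with no test. Their probes are those to which the platform annotation gives exactly 1 gene symbol, and each gene had 1 such probe, which made 5 probes among the 4875 with 1 symbol and 5 of 4209 genes in all. With the 8448 probes ordered from the largest increase to the largest decrease, the AL differences ranked 11, 18, 39, 90 and 24, in the order in which the genes are named above. Each of the 67 arrays is a nylon filter hybridised with radiolabelled cDNA from the cortex of 1 C57BL/6 mouse. AL mice had free access to regular feed and were studied at 17-21 days (2 males, 3 females), 33-44 days (3 males, 2 females), 6 months (169 to 194 days), 16 months (476 to 499 days) and 24 months (704 to 743 days), with 5 of each sex at each adult age. Mice on caloric restriction (CR) were stepped down in young adulthood to a fixed smaller ration of fortified feed and were studied at 6 months (4 males, 5 females, 174 to 194 days), 16 months (5 of each sex, 472 to 499 days) and 24 months (3 males, 5 females, 673 to 743 days, the 3 males all of 673 days). A value is a z-score, the distance of a probe from the mean of its array in units of the SD of that array, so differences are in z units and are not fold changes. A z-score below 0 marks a probe dimmer than the average probe of its filter, and levels of different probes were not set against each other. Whole cortex holds many cell types, and fewer cells of a type cannot be told apart from less RNA per cell.

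These genes belong to different pathways. Tbc1d20 encodes a GTPase-activating protein for RAB1, a small GTPase that directs vesicles from the endoplasmic reticulum to the Golgi apparatus, and loss of Tbc1d20 in mice causes cataract and male infertility. Hprt, on the X chromosome, encodes the enzyme that returns hypoxanthine and guanine to the nucleotide pool, and is often used as a reference gene for expression measurements. Atrnl1 encodes attractin-like 1, a membrane protein related to attractin, which takes part in pigmentation signalling and in the upkeep of myelin. Pnkd encodes a protein of synapses with a domain like that of glyoxalase II, and mutations of the human gene cause paroxysmal nonkinesigenic dyskinesia. Col6a2 encodes the alpha 2 chain of collagen VI, a beaded filament of the matrix around vessels, meninges and muscle.

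The promoter windows of the members are printed as a description, since their probes varied together across arrays. That correlation was weaker after the filter correction described below, and the part of the promoters in it was not tested. RefSeq windows on GRCm38.p6 run from 250 bases before to 50 bases after a transcript start, and they were searched on both strands for the GC box (GGGCGG), the CCAAT box (CCAAT) and the TATA box (TATAAA). The windows are chr2:152293578-152293877 on the plus strand for Tbc1d20, chrX:52987828-52988127 on the plus strand for Hprt, chr19:57610784-57611083 on the plus strand for Atrnl1, chr1:74332360-74332659 on the plus strand for Pnkd and chr10:76623581-76623880 on the minus strand for Col6a2. They are written 5′ to 3′ with the matches to the GC box, in either orientation, in capitals.
Tbc1d20: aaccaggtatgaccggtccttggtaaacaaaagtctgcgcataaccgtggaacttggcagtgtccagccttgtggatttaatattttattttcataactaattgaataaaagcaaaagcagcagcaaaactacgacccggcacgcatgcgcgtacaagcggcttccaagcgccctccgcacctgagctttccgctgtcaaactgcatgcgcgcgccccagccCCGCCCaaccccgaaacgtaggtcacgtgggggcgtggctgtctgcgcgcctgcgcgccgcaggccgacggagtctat
Hprt: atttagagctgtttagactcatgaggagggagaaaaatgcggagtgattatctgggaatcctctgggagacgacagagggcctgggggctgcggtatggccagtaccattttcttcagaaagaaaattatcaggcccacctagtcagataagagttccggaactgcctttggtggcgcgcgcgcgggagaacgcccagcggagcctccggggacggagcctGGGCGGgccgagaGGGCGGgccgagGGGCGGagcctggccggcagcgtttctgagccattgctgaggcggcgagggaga
Atrnl1: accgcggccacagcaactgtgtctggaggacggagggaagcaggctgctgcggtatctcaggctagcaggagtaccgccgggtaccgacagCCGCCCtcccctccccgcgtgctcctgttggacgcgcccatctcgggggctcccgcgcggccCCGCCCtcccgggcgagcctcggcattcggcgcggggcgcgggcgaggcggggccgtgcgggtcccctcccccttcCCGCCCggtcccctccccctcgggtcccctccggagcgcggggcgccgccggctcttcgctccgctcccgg
Pnkd: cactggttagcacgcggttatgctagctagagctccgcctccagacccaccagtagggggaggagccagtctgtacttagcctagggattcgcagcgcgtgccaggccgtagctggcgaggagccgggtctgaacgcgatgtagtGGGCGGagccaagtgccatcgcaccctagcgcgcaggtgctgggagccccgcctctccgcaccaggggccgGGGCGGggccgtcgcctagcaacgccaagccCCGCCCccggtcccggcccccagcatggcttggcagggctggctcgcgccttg
Col6a2: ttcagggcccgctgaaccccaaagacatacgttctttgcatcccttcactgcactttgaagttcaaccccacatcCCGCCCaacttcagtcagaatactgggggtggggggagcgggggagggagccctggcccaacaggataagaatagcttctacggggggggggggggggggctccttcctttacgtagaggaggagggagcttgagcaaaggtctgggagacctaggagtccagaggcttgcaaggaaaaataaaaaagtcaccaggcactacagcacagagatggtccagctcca
The Hprt, Atrnl1 and Pnkd windows each held 3 GC boxes, and those of Tbc1d20 and Col6a2 each held 1. The printed Pnkd window lies inside the annotated gene, at the start of another transcript. A second window of Col6a2, chr10:76623355-76623654 on the minus strand, which is not printed, held 3, of which a pair overlap. None of the windows held a CCAAT or a TATA box. Among 32851 windows of the same length, 35.7% held a GC box, 37.4% a CCAAT box and 13.6% a TATA box. The share of G and C was 56.3% for Tbc1d20, 61.0% for Hprt, 77.7% for Atrnl1, 70.0% for Pnkd and 56.7% for Col6a2, against a median of 52.7% over all windows. A match is a stretch of letters and not a measured binding site.

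Several features of the arrays bear on every value below. Array numbers from 46 on (22 arrays) stood apart from the 45 before them, and this split, read from the values, explained 0.945 of a first principal component with 48.1% of the variance. The numbers ran through the groups in 5 cycles, and in all 5 of them the 16 months arrays of a diet came before its 24 months arrays, so age and place within a cycle cannot be told apart. Among the 16 months AL arrays, replicate 2 of the males and replicate 2 of the females, labelled as different mice, correlated at 0.99975 against 0.989 for the next closest pair. They were closer to each other than any other pair and were counted as 1 sample in the means, SDs and ranges by age and diet, which leaves n = 9 at 16 months AL, while the fits by sex kept both. Residuals of probes 22 apart in number correlated at 0.408, the strongest of all distances searched, and those of adjacent probes at 0.316, from which a layout of 16 blocks with 24 rows and 22 columns was inferred. On that layout 4 of the 5 members lie in block 16 and 4 lie in column 16.

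As deposited, the members had their lowest adult mean at 16 months and their highest at 24 months in both diets, and the AL mean of Col6a2 at 24 months was little different from that at 6 months. After the filter correction described below, the highest CR mean lay at 6 months for each of the 5 genes, and so did the highest AL mean of Col6a2. Tbc1d20 lay at 0.372 ± 0.197 at 6 months AL (SD, n = 10), 0.183 ± 0.200 at 16 months (n = 9) and 0.537 ± 0.128 at 24 months (n = 10). In CR mice it lay at 0.334 ± 0.166 (n = 9), 0.218 ± 0.157 (n = 10) and 0.445 ± 0.0924 (n = 8). The juvenile means, 0.352 ± 0.142 at 17-21 days and 0.312 ± 0.342 at 33-44 days (n = 5 each), fell between the extremes of the adults.

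Hprt lay at 0.853 ± 0.245 at 6 months AL, 0.720 ± 0.229 at 16 months and 1.07 ± 0.163 at 24 months, with the same n as for Tbc1d20 here and for the genes that follow. The CR means were 0.853 ± 0.172, 0.799 ± 0.250 and 0.978 ± 0.123. At 17-21 and 33-44 days this purine salvage enzyme stood at 0.818 ± 0.170 and 0.890 ± 0.234. Atrnl1 had AL means of 0.929 ± 0.213, 0.784 ± 0.238 and 1.08 ± 0.157 at 6, 16 and 24 months. Its CR means were 0.923 ± 0.156, 0.858 ± 0.134 and 1.00 ± 0.135. The juvenile means of this attractin relative were 0.894 ± 0.124 and 0.902 ± 0.244.

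Pnkd was below the array mean at every age, with AL means of -0.330 ± 0.215, -0.436 ± 0.121 and -0.173 ± 0.114 at 6, 16 and 24 months. In CR mice it lay at -0.370 ± 0.136, -0.443 ± 0.109 and -0.271 ± 0.102. Both juvenile means of this synaptic protein gene were -0.402, with SDs of 0.144 at 17-21 days and 0.282 at 33-44 days. Col6a2 was far below the array mean at every age, with AL means of -1.49 ± 0.293, -1.81 ± 0.103 and -1.46 ± 0.122 at the adult ages. Its CR means were -1.60 ± 0.232, -1.64 ± 0.119 and -1.56 ± 0.195, and its juvenile means -1.48 ± 0.151 and -1.45 ± 0.465.

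When the 8 means of each gene by age and diet were put in order, the lowest was 16 months AL for Tbc1d20, Hprt, Atrnl1 and Col6a2 and 16 months CR for Pnkd. The highest was 24 months AL for all but Col6a2, whose highest was 33-44 days AL. Neighbours in the order differed by less than the larger of their SDs at every step but 1: for Col6a2 the 16 months CR mean was above the 16 months AL mean by 0.168, against SDs of 0.119 and 0.103. After the filter correction described below that difference was 0.0911, with SDs of 0.0815 under CR and 0.162 under AL. A choice by low AL values at 16 months and high AL values at 24 months favours these places of the AL means in the order.

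**Figure D1:**
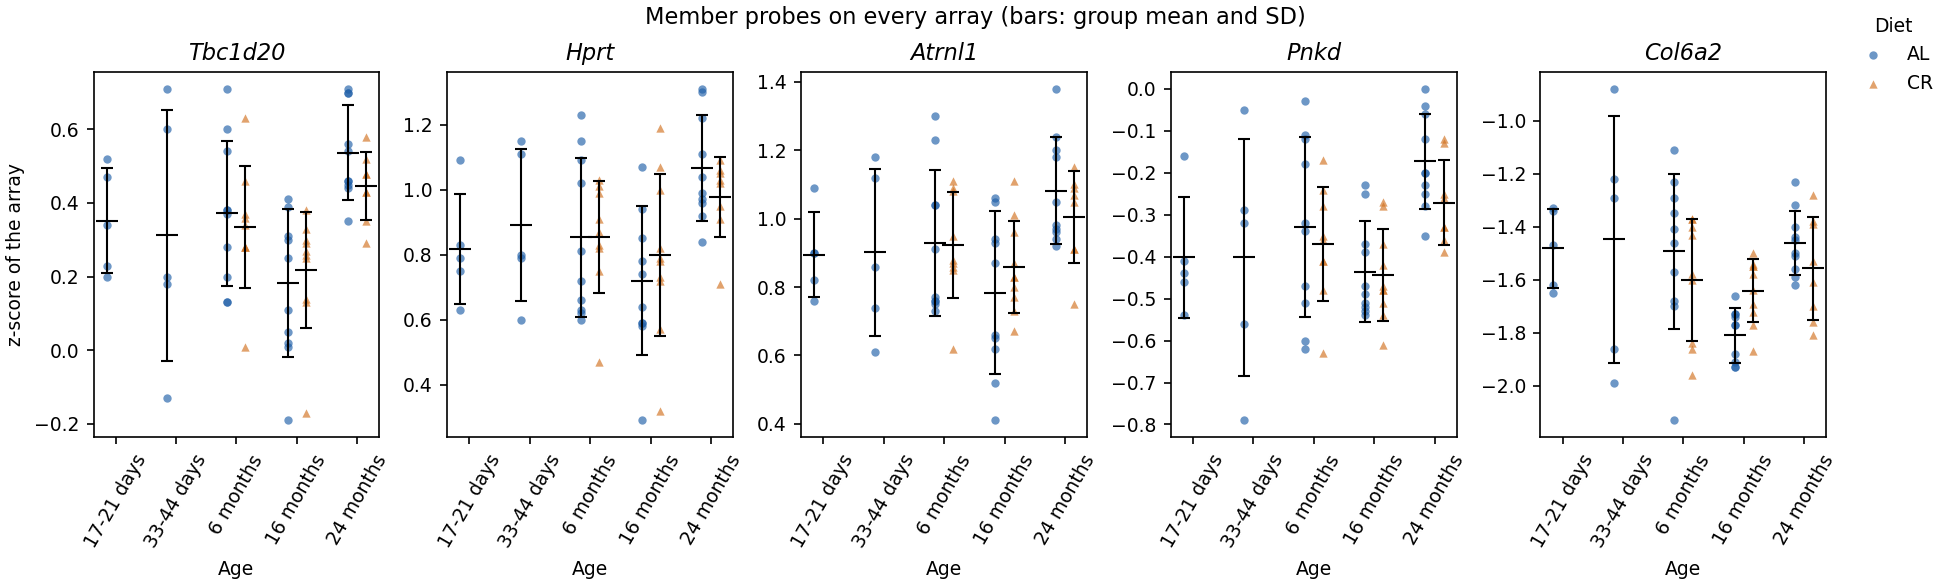
z-score of each member probe (vertical axis, its own scale in each panel) by age (horizontal axis) in every AL (circles) and CR (triangles) array, with the group mean and SD as black bars and the near-identical pair shown as separate points but counted once in the mean. In both diets the 16 months mean as deposited lay below the 24 months mean for each gene (after the filter correction not for Col6a2 under CR). Col6a2 at 16 and 24 months AL did not overlap as deposited and did overlap after the correction.

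In AL mice, whose arrays chose the members, the fitted difference from 16 to 24 months with the sexes weighted equally was 0.371 for Tbc1d20, 0.359 for Hprt, 0.311 for Atrnl1, 0.257 for Pnkd and 0.343 for Col6a2. Tbc1d20 ran from -0.19 through a median of 0.25 to 0.41 at 16 months and from 0.35 through 0.5 to 0.71 at 24 months. Hprt ran from 0.29 through 0.74 to 1.07 and from 0.84 through 1.015 to 1.31. Atrnl1 ran from 0.41 through 0.87 to 1.06 and from 0.92 through 1.015 to 1.38. The ranges of the 2 ages overlapped for these genes, although each of the 10 arrays at 24 months was above the mean at 16 months. Pnkd ran from -0.54 through -0.49 to -0.23 at 16 months and from -0.35 through -0.2 to 0 at 24 months, again with an overlap. Col6a2 ran from -1.93 through -1.77 to -1.66 at 16 months and from -1.62 through -1.475 to -1.23 at 24 months, so that every array at 24 months was above every array at 16 months. That was so for 0.0118% of the 8448 probes, which is Col6a2 alone, in the values as deposited. After the filter correction described below its 2 ages overlapped, with a 16 months array at -1.47 and a 24 months array at -1.82. Compared between arrays of the same cycle and sex, the 24 months array was the higher in 10 of 10 pairs for Tbc1d20, Hprt, Atrnl1 and Col6a2 and in 9 of 10 for Pnkd, whose remaining pair was equal. The near-identical arrays supply 2 of these pairs, and with them taken as 1 the counts were 9 of 9 and, for Pnkd, 8 of 9. A choice by the AL difference favours such counts, and the share of all probes that reach them is not given here.

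Over the longer interval the AL differences were smaller. From 6 to 24 months the AL means were higher by 0.165 for Tbc1d20, 0.213 for Hprt, 0.153 for Atrnl1, 0.157 for Pnkd and 0.031 for Col6a2. From 6 to 16 months they differed by -0.189, -0.133, -0.145, -0.106 and -0.316 in the same order. The CR means differed from 6 to 16 months by -0.116, -0.0543, -0.0653, -0.073 and -0.0399, and from 6 to 24 months by 0.111, 0.124, 0.0805, 0.0988 and 0.0436. After the filter correction the CR differences from 6 to 24 months were -0.0189, -0.0155, -0.0281, -0.0268 and -0.0238, so that every sign turned. The AL differences were then 0.0286, 0.0666, 0.0415, 0.0403 and -0.0167, and that of Col6a2 turned. From 6 to 16 months all signs stayed negative after the correction in both diets. These differences, which share arrays with the choice of the members or with the tests below, were not tested.

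Whether the difference between 16 and 24 months was also present under CR was asked in arrays outside the AL difference that chose the members. These arrays share the filter layout and the order of ages within a cycle with the AL arrays. The members were chosen with earlier results of these data known. In CR mice all 5 members had higher fitted means at 24 months, where 47.1% of all probes did, and none passed the adjusted threshold, which 0% of the 8448 probes passed (limma, Benjamini-Hochberg adjusted p of 0.999 for each member). Tbc1d20 ran from -0.17 through a median of 0.265 to 0.38 in 10 arrays at 16 months and from 0.29 through 0.455 to 0.58 in 8 arrays at 24 months, and 6 of the 8 were above every 16 months array. Its difference was 0.231 (95% interval 0.0486 to 0.413). Pnkd ran from -0.61 through -0.475 to -0.27 at 16 months and from -0.39 through -0.295 to -0.12 at 24 months, where 4 of 8 arrays were above every 16 months array. Its difference was 0.169 (0.0131 to 0.326).

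Hprt ran from 0.32 through 0.785 to 1.19 and from 0.71 through 1.025 to 1.09 under CR, with 0 of 8 arrays at 24 months above every 16 months array. Its difference was 0.186 (-0.0227 to 0.394). Atrnl1 ran from 0.67 through 0.83 to 1.11 and from 0.75 through 1.06 to 1.15, with a difference of 0.155 (-0.0274 to 0.337). Col6a2 ran from -1.87 through -1.61 to -1.5 and from -1.81 through -1.57 to -1.28, with 5 of 8 arrays above the 16 months mean and a difference of 0.0823 (-0.137 to 0.302). The intervals of Hprt, Atrnl1 and Col6a2 thus held 0 and also held increases as large as 0.394, 0.337 and 0.302. No member, and 0% of all probes, had every CR array of 24 months above every one of 16 months.

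At an unadjusted p under 0.05, 2 of the 5 members (Tbc1d20 and Pnkd) were called higher at 24 months under CR, against 1.78% of all probes. With array cycle and batch as a block, 4 of 5 (all but Col6a2) were called, against 6.57% of all probes, with differences of 0.237 for Tbc1d20, 0.195 for Hprt, 0.162 for Atrnl1, 0.171 for Pnkd and 0.0749 for Col6a2. The adjusted limma p-values with that block were 0.202, 0.272, 0.278, 0.256 and 0.785. The members are not separate pieces of evidence in these counts, since 4 of their probes lie within a few positions of each other on the filter.

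Within the earlier batch (6 CR arrays at 16 months and 5 at 24 months) the fitted CR difference came to 0.254 for Tbc1d20, 0.234 for Hprt, 0.115 for Atrnl1, 0.235 for Pnkd and 0.206 for Col6a2. Within the later batch (4 and 3 arrays) they were 0.198, 0.115, 0.228, 0.0575 and -0.12, so that the direction turned for Col6a2. The AL differences, given beside them as a description, were 0.355, 0.347, 0.295, 0.212 and 0.285 in the earlier batch (6 arrays at each age) and 0.395, 0.378, 0.335, 0.325 and 0.430 in the later one (4 at each age). The near-identical arrays lie in the earlier batch, and with them counted as 1 (5 samples at 16 months) its AL differences were 0.338, 0.343, 0.291, 0.220 and 0.284. Each AL difference was the larger in the later batch either way. Between CR arrays of the same cycle and sex, the 24 months array was the higher in 7 of 8 pairs for Tbc1d20 and Pnkd, 6 of 8 for Atrnl1 and 5 of 8 for Hprt and Col6a2.

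**Figure D2:**
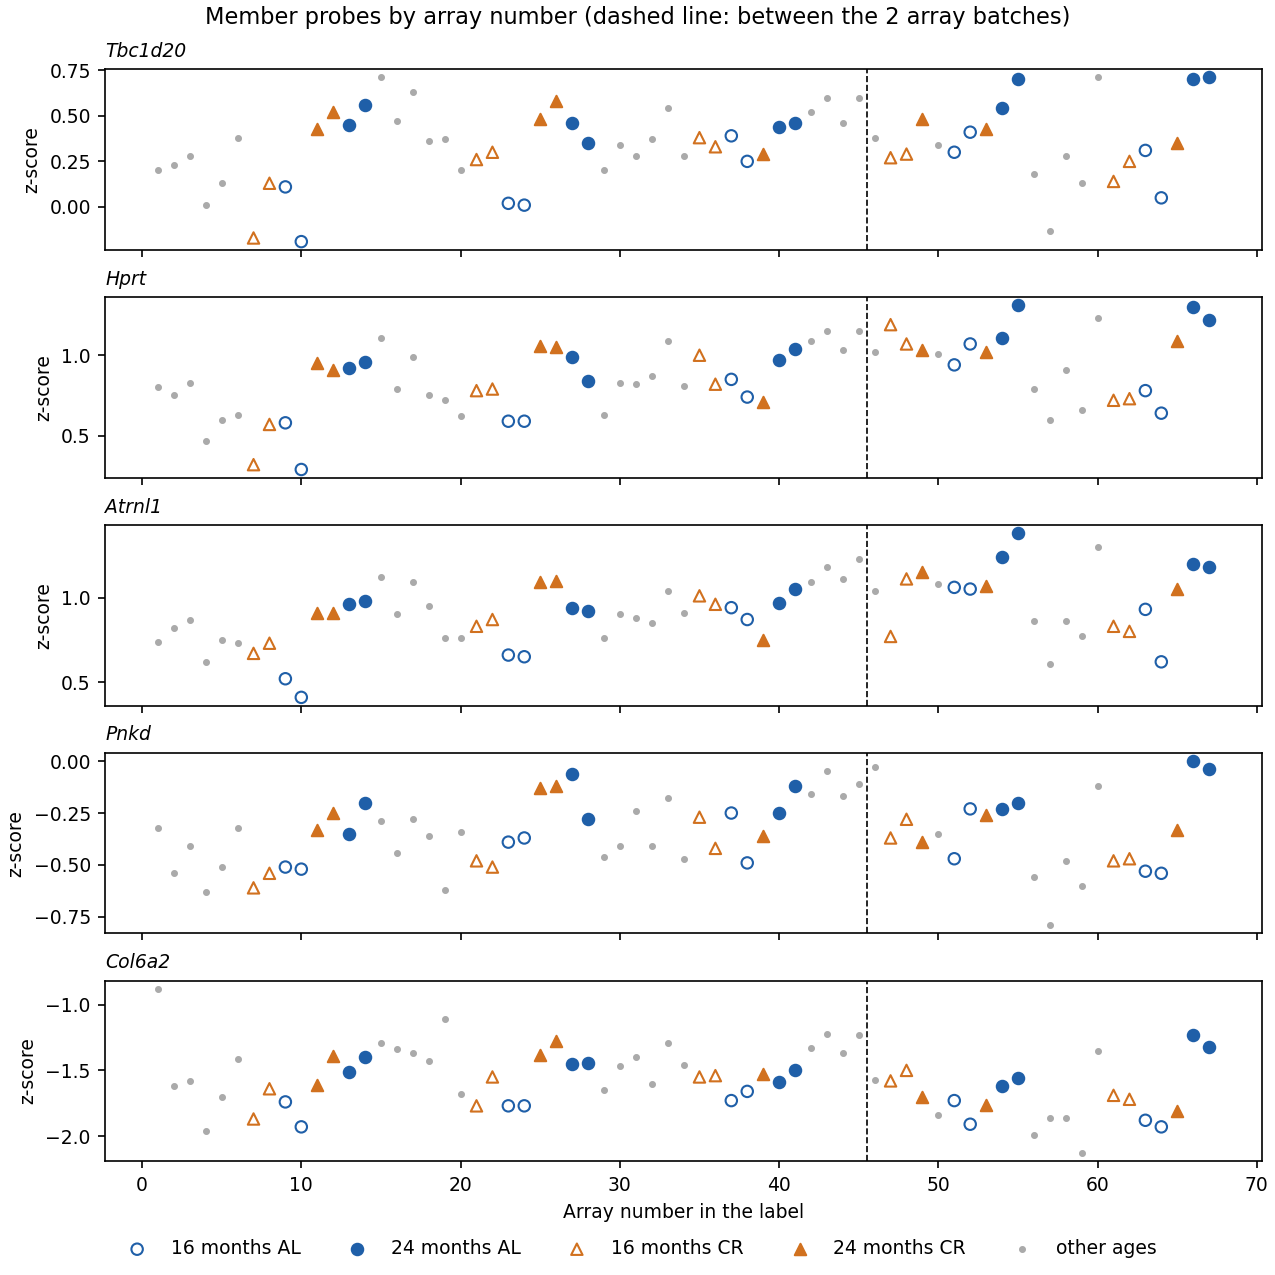
z-score of each member probe (vertical axis) against the array number in the label (horizontal axis), with open symbols for 16 months, filled symbols for 24 months, circles for AL, triangles for CR and grey dots for the other ages. Compared within a cycle and sex, each filled circle lies above its open circle or, in 1 pair of Pnkd, level with it. These circles are the AL arrays that chose the members, and that choice favours this direction. The dashed line marks the change of batch after array 45.

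The probes around the members differed between the ages in the same direction. For Tbc1d20, at block 16, row 4 and column 16, the surrounding probes that are no members had a mean AL difference of 0.295 from 16 to 24 months, and 7 of 7 were positive, where 48.2% of all probes were. Hprt lies 1 row away, at row 3 of the same column, and its 7 neighbours had a mean of 0.281, again with 7 positive. Atrnl1, at row 4 and column 14, had 8 neighbours with a mean of 0.195, of which 8 were positive. Col6a2, at row 7 and column 16, had 8 neighbours with a mean of 0.209, of which 7 were positive. Pnkd, at row 4 and column 16 of block 13, had 8 neighbours with a mean of 0.151, of which 8 were positive. Neighbourhoods of the block 16 members share probes, so these counts are not independent. Most of block 16 had the same direction under AL. Beyond 5 positions, 366 of 429 probes were positive for Tbc1d20 and for Atrnl1, 377 of 440 for Hprt and 346 of 407 for Col6a2. In block 13, 235 of the 429 probes beyond 5 positions from Pnkd were positive.

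Under CR the mean differences of the same neighbours were 0.147 around Tbc1d20, 0.172 around Hprt, 0.086 around Atrnl1, 0.144 around Pnkd and 0.0964 around Col6a2. In the ring 5 positions away the AL means were 0.200, 0.184, 0.139, 0.0699 and 0.160, and beyond 5 positions in the same block they were 0.0863, 0.0885, 0.0854, 0.0121 and 0.0846. The corresponding CR means beyond 5 positions lay between 0 and 0.0201. For each member and in both diets the mean beyond 5 positions was below that of every nearer ring, while the nearer rings had no steady order. Block 16 had the highest mean AL difference of the 16 blocks, 0.106, and block 13 had 0.0256. The probes at the same row and column of the other blocks had a mean AL difference of 0.114 ± 0.109 (SD) for the place of Hprt (13 of 15 positive), 0.0789 ± 0.0617 for that of Atrnl1 (14 of 15), 0.0307 ± 0.0709 for that of Col6a2 (8 of 15) and 0.0257 ± 0.167 for the place that Tbc1d20 and Pnkd share (8 of 14). Under CR these means were 0.157, 0.0905, 0.0279 and 0.129.

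A filter correction subtracted from each value a local mean of the deviations of the surrounding probes, the probe itself left out. After it Tbc1d20 differed under AL by 0.116, Hprt by 0.114, Atrnl1 by 0.0948, Pnkd by 0.132 and Col6a2 by 0.136. The part of the deposited AL differences taken away with the neighbourhood was thus 0.256, 0.245, 0.216, 0.125 and 0.207 z units in the same order. These are amounts and not shares. The CR differences after the correction were 0.0861 for Tbc1d20 (95% interval -0.025 to 0.197), 0.0263 for Hprt (-0.0767 to 0.129), 0.0418 for Atrnl1 (-0.0533 to 0.137), 0.0358 for Pnkd (-0.0903 to 0.162) and -0.0072 for Col6a2 (-0.188 to 0.174), with an adjusted limma p of 1 for each. With a wider smooth, chosen after the values were seen, the AL differences were 0.166, 0.153, 0.107, 0.158 and 0.158, and the CR differences 0.0989, 0.0421, 0.0345, 0.0553 and -0.0034. Such a correction also removes signal that neighbouring probes share, and the part of the filter position in the age differences was not tested.

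**Figure D3:**
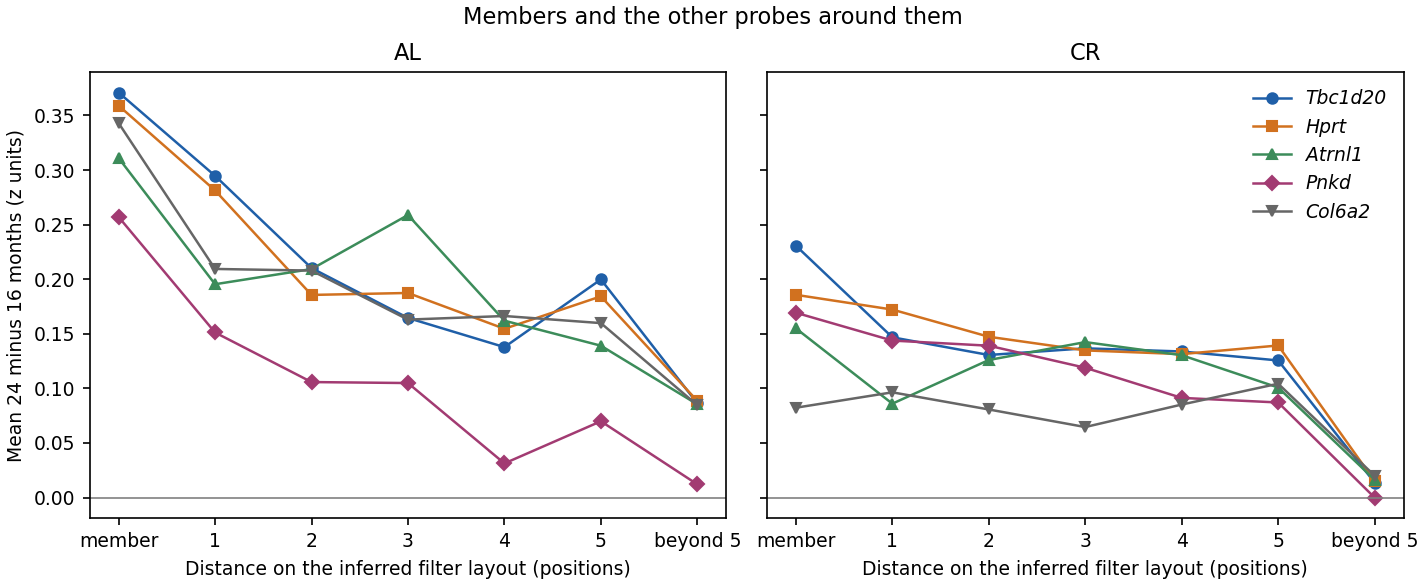
Mean difference from 16 to 24 months (vertical axis, z units) of each member and of the other probes at increasing distance from it on the inferred layout (horizontal axis, positions within the block), under AL on the left and CR on the right. The AL means fall from 0.257 to 0.371 at the members to between 0.0121 and 0.0885 beyond 5 positions.

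**Figure D4:**
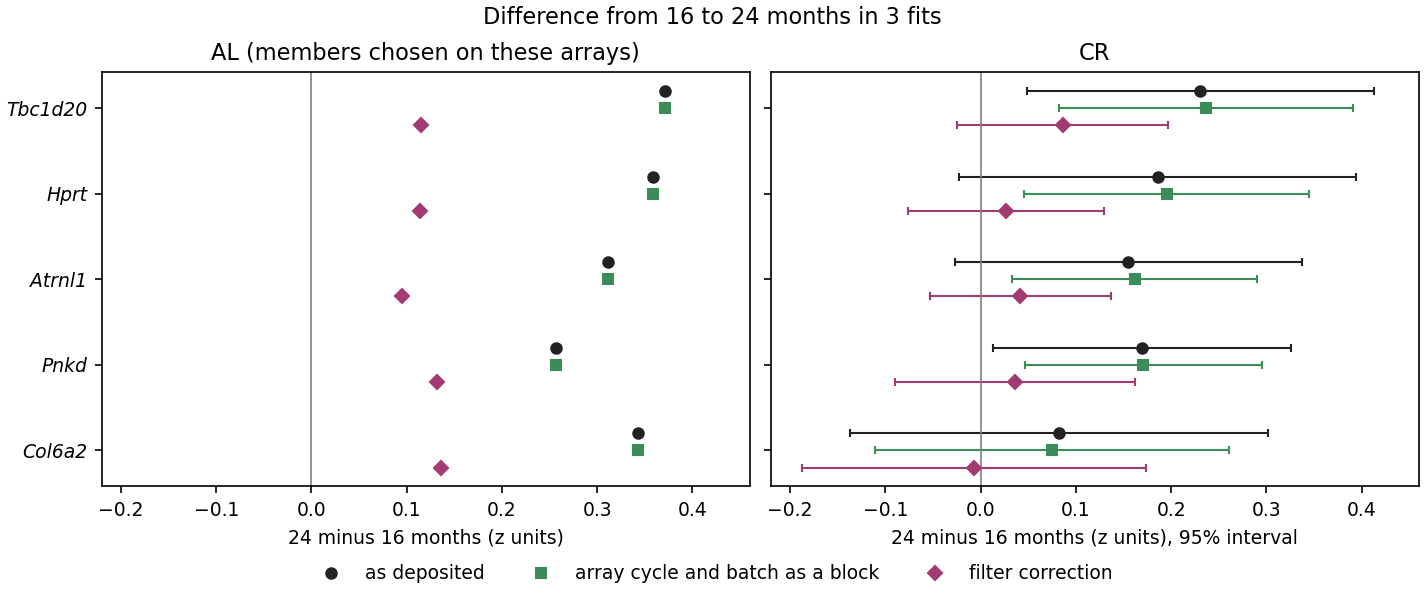
Difference from 16 to 24 months (horizontal axis, z units) of each member under AL (left, without intervals because these arrays chose the members) and CR (right, with 95% intervals), for the values as deposited, with array cycle and batch as a block, and after the filter correction. The corrected AL differences lie between 0.0948 and 0.136, and the 5 corrected CR intervals hold 0.

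Caloric restriction was compared with AL feeding over 6, 16 and 24 months together, where the AL difference that chose the members cancels. None of the members passed, as for 0% of all probes (limma, Benjamini-Hochberg adjusted p of 1 for each), and none had an unadjusted p under 0.05, against 0.71% of all probes. The difference, CR minus AL, was -0.023 for Tbc1d20 (95% interval -0.124 to 0.0779), 0.0056 for Hprt (-0.11 to 0.121), 0.006 for Atrnl1 (-0.0951 to 0.107), -0.0496 for Pnkd (-0.136 to 0.0371) and -0.0118 for Col6a2 (-0.134 to 0.11). The farthest that any of these intervals reached from 0 was -0.136, for Pnkd. At 6 months alone it was -0.0327 for Tbc1d20 (-0.207 to 0.141), 0.0062 for Hprt (-0.193 to 0.205), 0 for Atrnl1 (-0.174 to 0.174), -0.035 for Pnkd (-0.184 to 0.114) and -0.103 for Col6a2 (-0.313 to 0.107). None of the 5 and 0% of all probes passed the adjusted threshold there, and none of the 5 and 0.462% of all probes had an unadjusted limma p under 0.05.

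At the ages that chose the members, the diets are set side by side with no test. At 16 months the CR mean minus the AL mean was 0.0352 for Tbc1d20, 0.079 for Hprt, 0.0741 for Atrnl1, -0.0074 for Pnkd and 0.168 for Col6a2, and that of Tbc1d20 turned to -0.0211 after the filter correction. At 24 months it was -0.092, -0.0885, -0.0782, -0.0982 and -0.0955. The CR mean was thus below the AL mean at 24 months for each gene, and a choice by high AL values at 24 months favours that direction. In the same way, a choice by low AL values at 16 months favours a CR mean above the AL mean at that age.

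Females and males were compared over the 6 adult groups of each sex, which bears on Hprt as an X-linked gene. The difference, female minus male, was -0.0363 for Hprt (95% interval -0.152 to 0.0792), -0.013 for Tbc1d20 (-0.114 to 0.088), -0.0213 for Atrnl1 (-0.123 to 0.0798), 0.0142 for Pnkd (-0.0724 to 0.101) and -0.0035 for Col6a2 (-0.125 to 0.118). None passed (limma, Benjamini-Hochberg adjusted p of 1 for each), nor did any of the other probes (0%), and 0.971% of all probes and none of the members had an unadjusted p under 0.05.

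From 17-21 to 33-44 days, before any diet began, the members did not pass either, while 0.0947% of all probes did (8 probes). None of the 5 had an unadjusted p under 0.05, against 14% of all probes. Tbc1d20 stood at 0.2, 0.52, 0.23, 0.47 and 0.34 at 17-21 days and at 0.2, 0.71, 0.18, 0.6 and -0.13 at 33-44 days. The younger arrays lay inside the range of the older ones. Its difference was -0.0542 (95% interval -0.297 to 0.189, limma adjusted p = 0.811). Col6a2 stood at -1.65, -1.33, -1.62, -1.34 and -1.47 at 17-21 days and at -0.88, -1.29, -1.99, -1.22 and -1.86 at 33-44 days. The 2 lowest of the older arrays, -1.99 and -1.86, are those of the later batch, which holds no array of 17-21 days. Its difference was 0.02 (-0.274 to 0.314, limma adjusted p = 0.946) and 0.331 within the earlier batch (0.0738 to 0.588, limma adjusted p = 0.874). The differences of Hprt, Atrnl1 and Pnkd were 0.0625, 0.0017 and -0.0183, with intervals that held 0.

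**Figure D5:**
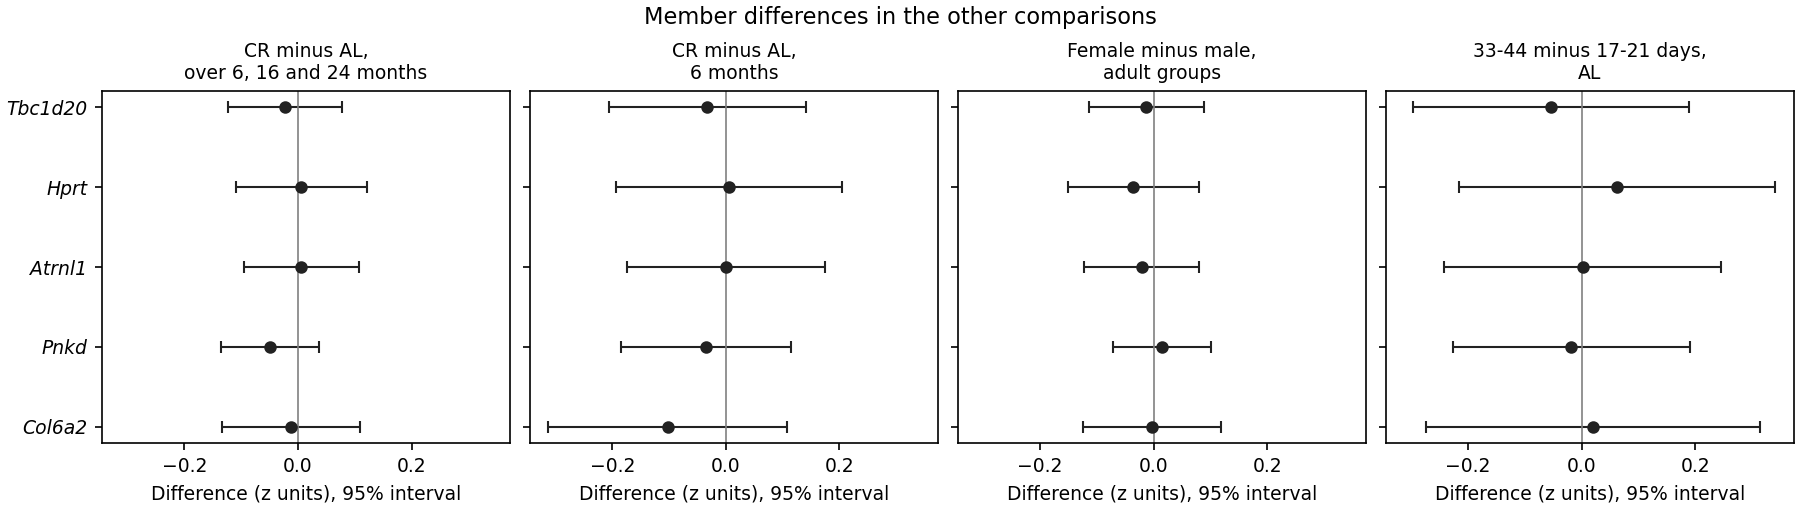
Difference of each member (horizontal axis, z units, points with 95% intervals) in the 4 comparisons that do not use the choice of the members: diets over 3 ages, diets at 6 months, sexes over the adult groups, and the juvenile ages under AL. Each of the 20 intervals holds 0.

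The members varied together across the 67 arrays after the mean of each batch had been subtracted. Pearson's r, given as a description, was 0.912 between Tbc1d20 and Hprt, 0.900 between Tbc1d20 and Atrnl1 and 0.899 between Hprt and Atrnl1. Pnkd correlated with these 3 at 0.777, 0.823 and 0.765, and Col6a2 with the other 4 at 0.615 to 0.712. After the filter correction as well, the first 3 pairs were at 0.659, 0.660 and 0.555 and the pair of Atrnl1 and Col6a2 at 0.0726. Arrays share the inferred filter layout, and their numbers run through the groups in cycles. The values describe a common course, and neither its cause nor an interaction was tested.

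Except for Pnkd, the named probes most like a member in the same measure lay mostly within 5 positions of it on the inferred layout. For Tbc1d20 they were Spag9 (r = 0.939), 1 position away, Bscl2 (0.922), 2 positions away, and Hexdc (0.922) in block 15. For Hprt they were Usp25 (0.932) and Spag9 (0.926), each 1 position away, and Hexdc (0.917). For Atrnl1 they were Nup188 (0.946), 1 position away, Spag9 (0.929), 3 away, and Tbc1d20 (0.900), 2 away. For Col6a2 they were Dnajb11 (0.783) and Usp25 (0.743), 5 positions away, and Bscl2 (0.740), 1 away. Those of Pnkd lay in other blocks, at similar rows and columns: Rac1 (0.854) at row 3 and column 18 of block 12, Mtfr1l (0.845) at row 2 and column 17 of block 14, and Kcnq1 (0.841) at row 2 and column 18 of block 11.

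After the filter correction the lists changed. The closest were Coa3 (0.851), Snu13 (0.832) and Fez1 (0.814) for Tbc1d20, Traf7 (0.773), Tinagl1 (0.759) and Camk1d (0.755) for Hprt, and Hexdc (0.769), Cdc26 (0.768) and Rac1 (0.755) for Atrnl1. For Pnkd they were Lsr (0.729), Rpn1 (0.698) and Polr2b (0.679), and for Col6a2 Nfyb (0.679), Mterf1a (0.647) and Ktn1 (0.636). Of these 15 entries, 3 lay in the block of their member, at least 6 positions away.

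The other genes of each member's pathway were taken from fixed lists, with the members left out of the counts. For Tbc1d20, the Rab cycle and traffic from the endoplasmic reticulum to the Golgi had 25 of 64 genes measured, on 27 probes. Under CR from 16 to 24 months 11 of the 27 were positive, with a median difference of -0.0153 against -0.0073 over all probes, and 0 passed (limma, adjusted) or had an unadjusted p under 0.05. The smallest p-values were those of Tbc1d14, a regulator of autophagy with the same domain (0.195, limma adjusted p = 0.999), and Chm, the Rab escort protein that presents Rab proteins for prenylation (0.245, limma adjusted p = 0.999). Under AL 11 of the 27 were positive, with a median of -0.023. After the filter correction the CR differences of Tbc1d14 and Chm were 0.032 and 0.14.

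For Hprt, purine salvage and synthesis had 7 of 36 genes measured, on 9 probes, of which 6 were positive under CR (median 0.0357) and 3 under AL (median -0.056). None passed, and none had an unadjusted p under 0.05 in either. The smallest p-values under CR were those of Gart, a trifunctional enzyme of purine synthesis (0.167, limma adjusted p = 0.999), and Ampd2, which deaminates AMP (-0.136, limma adjusted p = 0.999). The filter correction left CR differences of 0.0515 for that probe of Gart and -0.0603 for Ampd2. For Atrnl1, the attractin family and melanocortin partners had 3 of 16 genes measured, on 4 probes, with a CR median of 0.101 and an AL median of 0.013. None passed. A probe of Atrn, attractin itself, differed by 0.170 under CR and 0.151 under AL (limma adjusted p = 0.999 and 0.846). Rnf157, a ubiquitin ligase related to mahogunin, differed by 0.213 under CR (limma adjusted p = 0.999). After the filter correction that probe of Atrn differed by 0.085 under CR and 0.1175 under AL, and Rnf157 by 0.02 under CR.

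For Pnkd, the glyoxalase II family and presynaptic release had 4 of 33 genes measured, on 4 probes, with a CR median of 0.0047 and an AL median of 0.017. Glo1, the enzyme before glyoxalase II in the removal of methylglyoxal, differed by 0.173 under CR and 0.2 under AL (limma adjusted p = 0.999 and 0.647), with an unadjusted p under 0.05 in both, and Unc13b, a vesicle priming protein, by -0.0927 under CR (limma adjusted p = 0.999). After the filter correction Glo1 differed by 0.0037 under CR and 0.0762 under AL, and Unc13b by -0.0436 under CR. For Col6a2, collagen VI and the matrix had 25 of 49 genes measured, on 36 probes. Under CR 19 were positive with a median of 0.0005, and the smallest p-values were those of Col1a2, a fibrillar collagen chain (0.115), and Col18a1, a basement membrane collagen (-0.0653), with limma adjusted p of 0.999 for each. Under AL 26 of the 36 were positive, with a median of 0.04 against -0.004 over all probes. The smallest p there was that of Col4a1, a collagen of vessel basement membranes (0.176, limma adjusted p = 0.647). These AL values are as deposited, without the filter correction. The CR differences of these probes of Col1a2 and Col18a1 were 0.0501 and -0.0297 after the filter correction. No list was tested as a whole, and none of the 5 held a probe past the adjusted threshold in any of the comparisons.

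In the comparison of diets over 3 ages, 0 genes of these 5 lists passed (limma, adjusted), and Bmp1, a procollagen protease, was the 1 probe with an unadjusted p under 0.05 (-0.125, limma adjusted p = 1). The medians were 0.0267 for purine salvage and synthesis, -0.0036 for the Rab cycle, -0.0169 for the attractin family, -0.0112 for the glyoxalase and presynaptic list and -0.0032 for the matrix, against -0.0006 over all probes.

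Cell type markers were few among the named probes: Nefl for neurons (1 of 9 genes), Slc1a3 for astrocytes (1 of 6), C1qa and C1qb for microglia (2 of 6), 0 of 6 for oligodendrocytes, 6 of 12 genes for vessel and meninges and 2 of 5 for blood. On so few genes the tissue label could not be set against its defining markers. Under CR from 16 to 24 months the median differences were -0.144 for Nefl (2 probes), 0.0568 for Slc1a3 (2 probes) and -0.0293 for C1qa and C1qb, and under AL they were -0.016, -0.0355 and 0.0555. A probe of Nefl, a neurofilament subunit, had an unadjusted p under 0.05 under CR (-0.192, limma adjusted p = 0.999). Col6a2 is a gene of vessel and meninges, and the summed z of the 11 probes of that list ran from 2.50 through a median of 3.4 to 3.98 at 16 months AL and from 3.18 through 3.85 to 5.27 at 24 months AL. In CR mice it ran from 1.51 through 3.53 to 3.78 and from 2.51 through 3.41 to 4.38. Under AL 11 of the 11 probes, from 6 genes, had positive differences from 16 to 24 months (median 0.045), against 48.2% of all probes (median -0.004). Under CR 7 did (median 0.018), against 47.1% of all probes (median -0.0073). In each diet 0 of the 11 were past the adjusted threshold and 0 had an unadjusted p under 0.05. All marker values in this paragraph are as deposited, without the filter correction. The part of the vessel and meninges markers in the difference of Col6a2 was not tested. The blood list, on 13 probes of 2 genes, ran from -4.62 through -2.36 to -0.42 at 16 months AL and from -4.56 through -2.54 to 0.1 at 24 months AL. The vessel and meninges list shares collagen genes with the matrix list.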

How the data were processed

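RNA of 67 mouse cortices was measured on nylon cDNA filters, 1 mouse per filter, and the values used here hold 8448 probes. The authors report more genes than that for their array, so these probes are a part of it. Counts of probes and of genes measured refer to these probes alone. The authors deposited a z-score for each probe, made by taking the logarithm of its intensity, subtracting the array's mean and dividing by the array's SD. Each deposited score was thus scaled within its own array by the authors. For log base and background treatment nothing is given in the sources used, so intensity over background is unknown, and the number of arrays limits the precision.

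Groups came from the labels. The platform annotation gave 4875 probes exactly 1 symbol, 224 several and 3349 none. With limma 3.58.1 in R 4.3.3, 1 mean per age, diet and sex (16 groups) was fitted over all arrays, sexes weighted equally, two-sided, with Benjamini-Hochberg adjustment over 8448 probes at a threshold of 0.05. The labels give 1 mouse per array, so p-values measure the spread between arrays, in which mouse and filter cannot be told apart. The main fit held no term for batch or cycle. The fit was tested on simulated data with independent noise for each probe. Those data held no batch shift and no shared deviation of neighbouring probes, so that test does not bear on either. The members, the pathway lists and the marker lists were chosen with earlier results of these data known.

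The filter layout was inferred from correlations between probe numbers, and the filter correction was a Gaussian mean (SD 1.5 positions, or 3 in the wider form) of the surrounding deviations. It removed 36.0% of the variance within batches. Named genes were the members, the 3 probes most correlated with each, and the 2 listed genes of smallest p where 0 passed. Alternatives were array batch or cycle as a block, each batch alone, median centring, quantile normalization, a filter on low mean z, fewer arrays in the fit, an additive model, the filter correction, and leaving out each array.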

Additional observations from a re-analysis of the deposited data

Results flagged for a closer look

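In 16 months AL males, replicate 5 stood apart for Col6a2, at -1.88 against -1.77 to -1.73 in the other 4, a gap of 0.733 of the range of the group. It was the 1 such case among 55 groups of a member by age, diet and sex. Chance flags about 5% of groups.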

How the results depend on the processing

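For 16 to 24 months under CR, the difference of Col6a2 turned to -0.12 in the later batch, -0.0072 with the filter correction, -0.0211 with that correction and the cycle and batch block, and -0.0034 with the wider smooth, chosen after the values were seen. The other 4 members stayed positive under every alternative run. Leaving out 1 array gave 0.187 to 0.256 for Tbc1d20, 0.125 to 0.234 for Hprt, 0.13 to 0.19 for Atrnl1, 0.131 to 0.196 for Pnkd and 0.0365 to 0.117 for Col6a2.

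Diet over 3 ages turned sign for Tbc1d20 (0.0375) and Col6a2 (0.0174) in the earlier batch, for Hprt (-0.0183) and Atrnl1 (-0.0608) in the later batch, and for Hprt (-0.0041) and Atrnl1 (-0.0037) without the near-identical arrays. Without 1 array at a time it ran from -0.0105 to 0.0257 for Hprt, -0.0069 to 0.0207 for Atrnl1 and -0.0384 to 0.0044 for Col6a2. Diet at 6 months turned for Pnkd in the earlier batch (0.0146) and for Tbc1d20 with the filter correction (5e-04), and without 1 array ran from -0.074 to 0.0073 for Tbc1d20, -0.0243 to 0.0522 for Hprt and -0.065 to 0.0018 for Pnkd. Sex turned for Col6a2 with the batch block (0.0034), the cycle and batch block (0.0043), the filter correction with that block (0.0045) and the wider smooth (0.0018), for Pnkd in the earlier batch (-0.0351), and in the later batch for Tbc1d20 (0.0567), Hprt (0.065), Atrnl1 (0.0242) and Col6a2 (0.0767). Without 1 array it ran from -0.0274 to 8e-04 for Tbc1d20 and -0.0301 to 0.0124 for Col6a2.

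Between the juvenile ages, Hprt turned with the batch block (-0.003), Atrnl1 with that block (-0.0482) and the cycle and batch block (-0.0027), Tbc1d20 in the earlier batch (0.174), and Pnkd with the cycle and batch block (0.0137), in the earlier batch (0.209), with the filter correction (0.116), with both (0.0404) and with the wider smooth (0.119). Leaving out 1 array gave -0.237 to 0.128 for Tbc1d20, -0.075 to 0.2 for Hprt, -0.141 to 0.144 for Atrnl1, -0.203 to 0.167 for Pnkd and -0.14 to 0.18 for Col6a2. The 8 probes past the threshold became 70 with the batch block, 21 with the cycle and batch block, 1 among probes of mean z above 0, and 0 with only the groups compared, in the earlier batch, and with the filter correction, alone, blocked or wider. Leaving out 1 array gave 0 (without 33-44 days AL male replicate 1) to 441 (without 33-44 days AL female replicate 1). The later batch alone gave 2 probes for 16 to 24 months under CR, 1 for diet over 3 ages, 2 for diet at 6 months and 1 for sex, and the cycle and batch block gave 92 for the difference from 16 to 24 months under AL, against 0 in each main fit. The cause of these shifts was not tested. The replicate numbers, given in accession order, pair no mice. Arrays were matched by array cycle instead, as a block in the fits above.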
